A study of Mus musculus with 3 samples.

Results

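The amino acid transporters of solute carrier families 1, 3, 6, 7, 36, 38 and 43 were examined in 3 RNA-seq libraries of mouse hematopoietic stem and progenitor cells (HSPCs). Members were all gene rows whose symbol begins with Slc1a, Slc3a, Slc6a, Slc7a, Slc36a, Slc38a or Slc43a followed by a digit, whatever their level, which gave 64 of 24421 gene rows. Of these, 61 are carriers or carrier subunits, and 3 (Slc7a6os, Slc36a1os and Slc6a19os) are separate opposite-strand or antisense genes that only share the name. A few carriers in these families move other substrates: Slc43a3 carries nucleobases, Slc6a8 carries creatine, and Slc6a2, Slc6a3 and Slc6a4 carry monoamine neurotransmitters.

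All 3 libraries belonged to a single group labelled control. The cells came from bone marrow of C57BL/6 mice of genotype Cicflox/flox + tamoxifen: both alleles of Cic, which encodes the transcriptional repressor Capicua, carried loxP sites, and the mice had received tamoxifen, the drug used to switch on inducible Cre recombinases. The labels of these libraries name no Cre. They give no age and do not say whether the libraries came from separate mice, so the SD between libraries may be technical. The cells were enriched through c-Kit on magnetic beads and sorted as negative for lineage markers and positive for c-Kit and Sca-1. The series compared 2 mouse groups, and the other group is not analysed here, so no comparison between conditions was possible.

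Cells take up amino acids through families of membrane carriers that differ in substrate and driving force. Sodium-coupled carriers of families 1, 6 and 38 load small neutral and acidic amino acids against a gradient. Exchangers of family 7 trade those stores for large neutral or cationic amino acids, and several of them reach the cell surface only when paired with the heavy chain 4F2hc (CD98), encoded by Slc3a2. Members of families 36 and 38 also sit on lysosomes, where amino acids are sensed by mTORC1, the kinase complex that drives growth. In HSPCs, supply of amino acids is known to bear on proliferation and on maintenance of the stem cell pool.

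Gene counts summed to 30718562, 25097769 and 30032593 in libraries 1, 2 and 3. Levels are CPM, counts scaled to the total of each library's gene rows, and a gene with no count can lie anywhere up to the level of 3 counts, which was 0.0977, 0.120 and 0.0999 CPM. This limit covers counting error only, since amplified reads are not independent molecules. The ribosomal precursor Rn45s took 11.8%, 8.20% and 7.91% of gene counts. Cic was at 168, 139 and 120 CPM. All 8 markers of the sorted cells reached 1 CPM (Kit 826 ± 71.0 CPM, Ly6a 103 ± 9.50 CPM, mean ± SD, n = 3). Summed markers of mature neutrophils were uneven, at 153, 36.8 and 85.6 CPM. The T and NK cell markers summed to 2.96, 3.75 and 4.99 CPM, and the globin genes Hbb-bs, Hbb-bt and Hba-a1 had no count.

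A mean of at least 1 CPM was reached by 31 of the 64 members (48.4%), against 53.1% of all gene rows. A mean of at least 5 CPM was reached by 24 members (37.5%; 43.5% of all gene rows), and 6 members exceeded 100 CPM (9.38%; 9.03% of all gene rows). Those 6 were Slc38a2, Slc38a1, Slc6a6, Slc43a3, Slc7a1 and Slc3a2. At least 1 count was found for 50 members (78.1%; 71% of all gene rows), and 14 had none in any library. In every library at least 1 CPM was reached by 29 members (45.3%; 50.2% of all gene rows). All of these shares were near the background. The lowest member above the 1 CPM minimum was Slc7a2 at a mean of 1.73 CPM, and the highest below it was Slc3a1 at 0.992 CPM.

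All members together summed to 2199, 2219 and 2263 CPM in libraries 1, 2 and 3, or 2227 ± 32.6 CPM. Because longer transcripts gather more reads, levels of different genes are compared below only as CPM per kilobase of annotated exons (CPM/kb). On that scale the members summed to 315 ± 8.11 CPM/kb. The top 2 members held 28.3 ± 1.25% of that sum, the top 5 held 53.2 ± 1.55% and the top 10 held 77.4 ± 1.40%. The median expressed member stood at 5.70 CPM/kb, against 6.45 CPM/kb for all genes at 1 CPM or more with a known length, and 13 of 31 members lay above that value.

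Promoter sequences are shown for 4 members, chosen after their levels were seen, because they span the range of sequence and level in the set. They are the 250 bases before the transcription start, 5′ to 3′ on the gene's strand, from RefSeq on GRCm38.p6. In the windows of Slc38a2, Slc38a4 and Slc6a11 capitals mark CpG dinucleotides. The Slc38a2 window (chr15:96699729-96699978, minus strand) belongs to the member with the highest level and holds 30 CpG. The Slc38a4 window (chr15:97055957-97056206, minus strand) belongs to its silent neighbour and holds 3. The Slc6a11 window (chr6:114130991-114131240, plus strand) holds 25 although the gene had no count. In the Slc7a11 window (chr3:50443614-50443863, minus strand) capitals mark TGATGNAAN, the letters of the element that ATF4, the transcription factor of the amino acid starvation response, is known to bind with C/EBP partners, or their reverse complement.
Slc38a2: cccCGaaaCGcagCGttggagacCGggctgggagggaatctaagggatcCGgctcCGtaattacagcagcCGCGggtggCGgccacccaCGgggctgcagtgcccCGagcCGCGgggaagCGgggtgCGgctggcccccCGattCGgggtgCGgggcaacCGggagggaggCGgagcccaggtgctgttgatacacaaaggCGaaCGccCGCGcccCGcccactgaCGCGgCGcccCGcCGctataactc
Slc38a4: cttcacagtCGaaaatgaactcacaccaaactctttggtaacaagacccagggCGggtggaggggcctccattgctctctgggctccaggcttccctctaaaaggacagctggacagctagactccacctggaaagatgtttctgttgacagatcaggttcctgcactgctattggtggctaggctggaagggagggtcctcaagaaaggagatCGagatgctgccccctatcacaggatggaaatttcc
Slc6a11: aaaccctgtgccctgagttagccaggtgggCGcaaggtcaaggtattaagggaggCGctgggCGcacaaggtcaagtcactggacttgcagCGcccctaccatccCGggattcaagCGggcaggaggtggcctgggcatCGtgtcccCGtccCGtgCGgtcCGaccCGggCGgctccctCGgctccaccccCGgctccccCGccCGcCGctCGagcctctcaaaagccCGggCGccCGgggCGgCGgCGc
Slc7a11: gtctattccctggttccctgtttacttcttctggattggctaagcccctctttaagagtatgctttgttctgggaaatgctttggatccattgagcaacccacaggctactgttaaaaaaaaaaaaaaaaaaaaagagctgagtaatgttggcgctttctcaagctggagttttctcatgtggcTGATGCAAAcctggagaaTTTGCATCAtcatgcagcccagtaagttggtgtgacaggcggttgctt

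The Slc7a11 window held 2 such matches, of which the first, TGATGCAAA, begins 66 bases before the start. Windows of 300 bases (250 before to 50 after the start) were at hand for 46 of the 64 members, and not for Slc38a1, Slc6a6, Slc43a3, Slc1a5 or Slc7a5 among the high members. The 22 expressed members with a window had a median of 17 CpG per window, and the 24 members under 1 CPM had 7. The 9 members without any count had a median of 5. The same medians over all gene rows were 20, 4 and 3. More than 10 CpG were found in 72.7% of expressed members and in 37.5% of members under 1 CPM, against 79.3% and 26.1% of all gene rows. The members thus showed the same order as the genome at large, with a smaller gap. Slc6a11 (a GABA carrier), at 32 CpG with no count, and Slc6a20b, at 1 CpG and 4.36 CPM, went the other way. Searched on both strands, TGATGNAAN was found in the windows of Slc7a7, Slc1a4 and Slc7a11 (6.52% of members; 3.98% of all windows). The E-box CACGTG was found in 8 members (17.4%; 9.17% of all windows), GGGCGG in 30 (65.2%; 49.6%) and TATAAA in 6 (13.0%; 14.2%). No overlap between motifs was scored, and a match is a description of letters only.

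**Figure D1:**
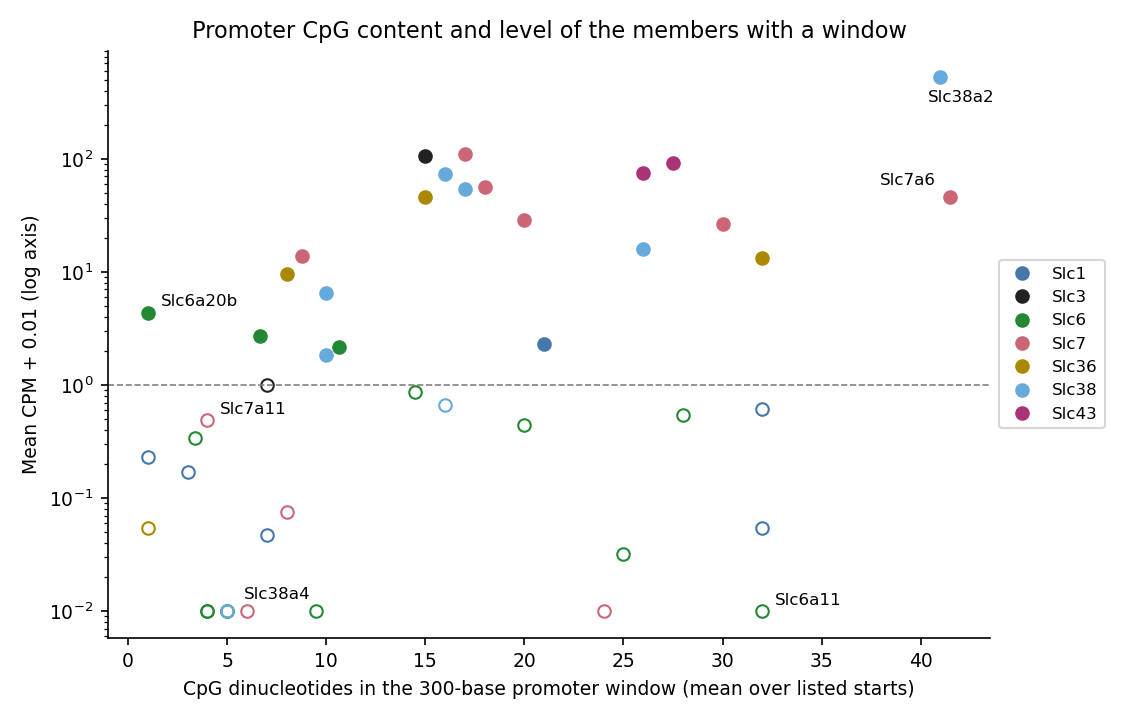
Mean level (CPM + 0.01, log axis, 3 libraries) of the 46 members with a promoter window against the number of CpG dinucleotides in the 300-base window, coloured by family; filled points are members at 1 CPM or more (dashed line). Filled points lie further to the right (median 17 CpG) than open points (median 7), with Slc6a11 and Slc6a20b as exceptions.

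Family Slc38, the sodium-coupled neutral carriers and their lysosomal relatives, held the largest family share of the summed level, 31.1 ± 1.58% per kilobase (32.8%, 30.8% and 29.6% in libraries 1, 2 and 3). Its share was 46.6% in plain CPM. Family Slc7 followed with 21.8 ± 1.85%, then Slc43 with 16.0 ± 0.834%, Slc3 with 9.59 ± 0.353%, Slc6 with 9.37 ± 1.18%, Slc1 with 7.29 ± 0.274% and Slc36 with 4.84 ± 0.592%. These sums include the 3 genes that only share the name, which held 3.57 ± 0.821%, and the proton-coupled carriers of Slc36 alone held 3.27 ± 0.222%. Shares of Slc3 and Slc6 overlapped between libraries. At least 1 CPM was reached by all 3 members of Slc43, 7 of 11 in Slc38, 9 of 16 in Slc7, 3 of 5 in Slc36, 1 of 2 in Slc3, 6 of 20 in Slc6 and 2 of 7 in Slc1. Slc6 and Slc1, whose members mostly serve neurons and kidney, thus had the lowest proportions of expressed members.

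**Figure D2:**
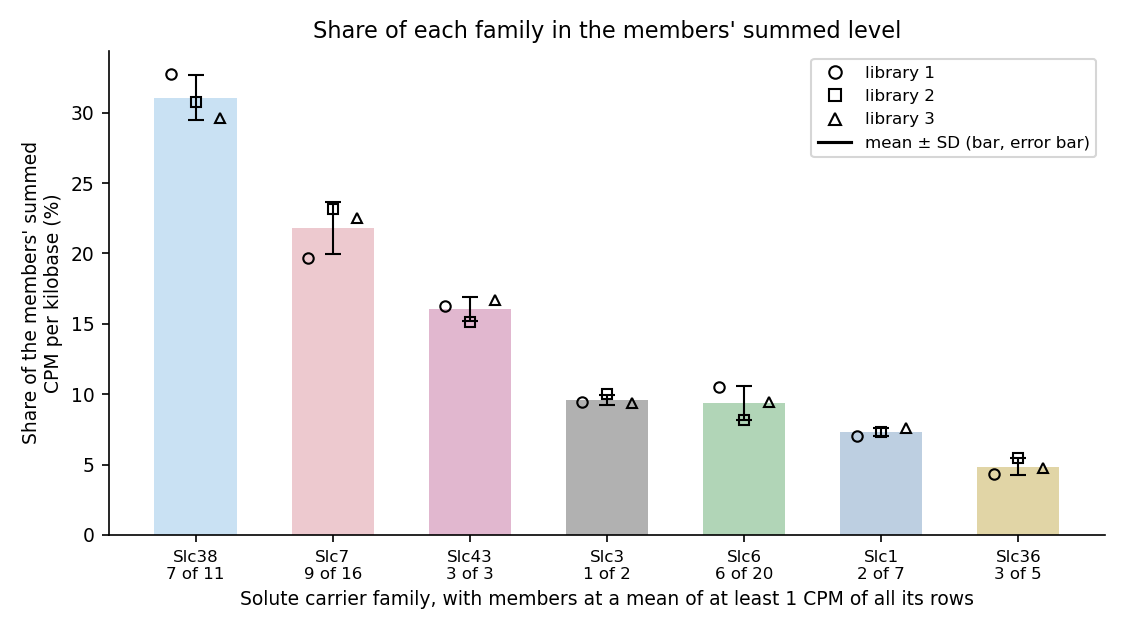
Share of the summed CPM/kb of all members held by each family, in percent; bars are means, error bars SD and points the 3 libraries, with the number of members at 1 CPM or more under each name. Slc38 stands highest at 31.1%, and Slc36 lowest at 4.84%.

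Slc38a2 encodes SNAT2, the sodium-coupled carrier of alanine, glutamine and other small neutral amino acids known for its induction in amino acid starvation. It lies at chr15:96687392-96699730 on GRCm38 and measured 554, 511 and 511 CPM in libraries 1, 2 and 3 (525 ± 24.6 CPM). Per kilobase it stood at 59.4 ± 2.79 CPM/kb and was the highest of all members in each library. Slc38a1 encodes the closely related SNAT1, a glutamine carrier, and lies 44.5 kb away at chr15:96571418-96642913. It measured 341, 355 and 384 CPM (360.0 ± 22.3 CPM), which is 20.9 ± 1.29 CPM/kb over its 17.2 kb of exons. Slc38a2 exceeded Slc38a1 2.85-fold per kilobase (log2 difference 1.51 ± 0.15, SD, higher in 3 of 3 libraries). The size of that gap rests on the length used: over the longest transcript alone the values were 85.9 and 49.5 CPM/kb, and Slc38a1 moved from rank 7 to rank 2.

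Slc38a4, the third gene of this stretch of chromosome 15, encodes the liver and placental carrier SNAT4. It lies 295 kb beyond Slc38a2, at chr15:96994820-97055956, and had no count in any library. Slc38a3 and Slc38a8, carriers of liver, brain and eye, also had none. Slc38a11, a little studied relative, had 22, 25 and 8 counts. Slc38a5, the SNAT5 exchanger, measured 1.24, 3.03 and 1.27 CPM, so library 2 stood above the others.

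The Slc38 members of intracellular membranes lay below Slc38a1 and Slc38a2 per kilobase. Slc38a9, the lysosomal arginine sensor that signals to mTORC1, measured 79.7, 75.5 and 64.3 CPM (73.2 ± 7.98 CPM; 4.38 CPM/kb). Slc38a10 measured 56.3, 56.4 and 51.1 CPM (8.504 CPM/kb). Slc38a7, a lysosomal glutamine exporter, measured 6.58, 7.93 and 5.19 CPM. All 3 were lowest in library 3. Slc38a6 measured 15.5, 21.2 and 11.4 CPM, but 35.5% of the 50-base words of its transcripts also occur in other genes (26.3% in Noct alone), so its level is uncertain.

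**Figure D3:**
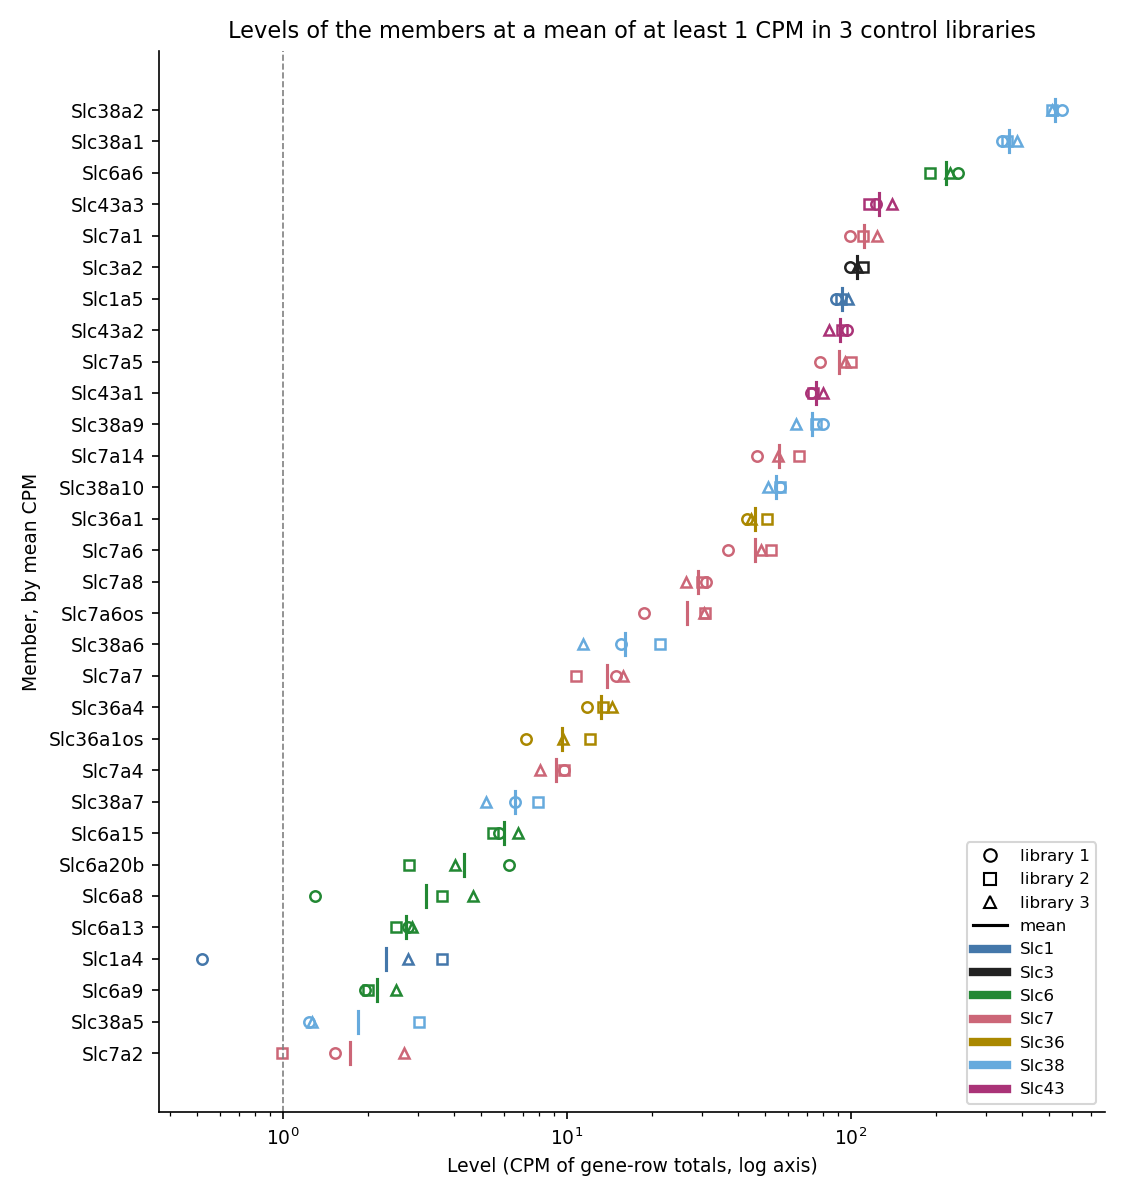
CPM in each of the 3 libraries (points) with the mean, on a log axis, for the 31 members at a mean of 1 CPM or more, coloured by family. Slc38a2 leads at 525 CPM, the libraries lie close together down to a few CPM, and they spread for Slc1a4, Slc6a8, Slc38a5 and Slc7a2.

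Slc3a2, the heavy chain 4F2hc that brings 6 light chains of family 7 to the membrane, measured 99.7, 111 and 105 CPM (105 ± 5.45 CPM). It lies at chr19:8706882-8723369. The other heavy chain, Slc3a1 (rBAT), which serves kidney and gut, had 43, 27 and 15 counts, and 26.5% of its exon bases overlap Prepl on the opposite strand. Slc7a9, the light chain that pairs with rBAT and is mutated in cystinuria, had no count. Slc3a1 lay at 1.40, 1.08 and 0.499 CPM, a mean of 0.992 CPM just under the minimum, and passed it with totals without Rn45s (1.10 CPM) or without library 3 (1.24 CPM).

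Among the light chains of 4F2hc, Slc7a5 (LAT1), the importer of leucine and other large neutral amino acids, was highest, at 78.1, 100.01 and 95.4 CPM (91.2 ± 11.5 CPM; 24.6 ± 3.11 CPM/kb). Library 1 was the lowest of the 3. Slc7a6 (y+LAT2), which exchanges cationic for neutral amino acids, measured 36.9, 52.4 and 48.4 CPM (10.0 ± 1.76 CPM/kb) and was also lowest in library 1. Slc7a8 (LAT2) measured 30.9, 30.0 and 26.3 CPM (5.81 ± 0.487 CPM/kb). Slc7a7 (y+LAT1), mutated in lysinuric protein intolerance and known from macrophages and epithelia, measured 14.9, 10.8 and 15.8 CPM (4.18 ± 0.809 CPM/kb). Summed markers of macrophages and dendritic cells followed the same order of libraries, with library 2 lowest (39.6, 28.0 and 42.0 CPM), and their part in the Slc7a7 level was not tested. Slc7a11 (xCT), the cystine importer that feeds glutathione synthesis, had only 15, 6 and 21 counts. Slc7a10 (Asc-1), a carrier of brain and fat, had no count.

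Of the summed light chain level per kilobase, Slc7a5 held 54.9 ± 1.90%, Slc7a6 22.4 ± 1.93%, Slc7a8 13.1 ± 2.15%, Slc7a7 9.47 ± 2.35% and Slc7a11 0.0774%. The order Slc7a5, Slc7a6, Slc7a8, Slc7a7 was found in all 3 libraries over the annotated exons. Its last step rests on the length used. Over the longest transcript the means were 7.12 ± 0.597 CPM/kb for Slc7a8 and 6.08 ± 1.18 CPM/kb for Slc7a7. On that length Slc7a7 stood above Slc7a8 in library 3. Some exon bases of Slc7a7 also overlap Oxa1l on the opposite strand, so part of its reads may belong to that gene. Over the annotated exons, Slc7a5 exceeded Slc7a6 2.46-fold (log2 1.30 ± 0.08) and Slc7a8 4.22-fold (log2 2.08 ± 0.27), each in 3 of 3 libraries. Slc3a2 stood at 29.8 ± 1.54 CPM/kb and the 6 light chains summed to 44.7 ± 4.198 CPM/kb. The heavy chain was below the summed light chains by log2 differences of -0.50, -0.61 and -0.64 in libraries 1, 2 and 3 (mean -0.58 ± 0.07). The difference had the same sign in 3 of 3 libraries, with p = 0.25 (exact permutation of signs over libraries, two-sided), the smallest p that 3 libraries allow. Adjusted over the 13 pairs of genes set side by side, the permutation p was also 0.25. Against Slc7a5 alone, Slc3a2 was higher in each library (log2 0.28 ± 0.12).

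**Figure D4:**
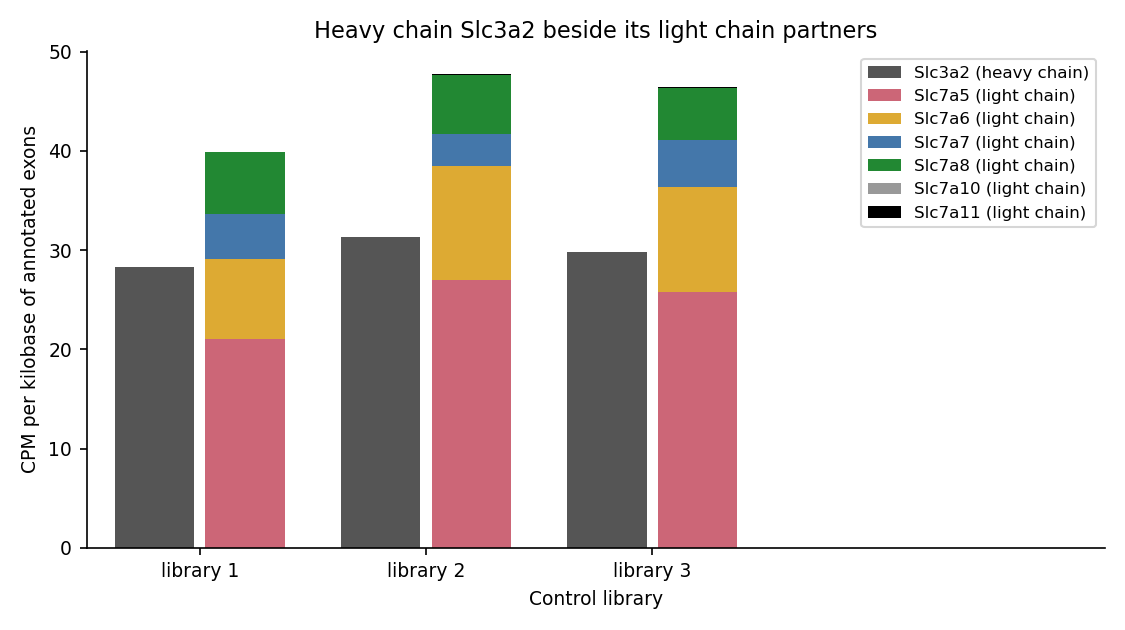
CPM/kb of the heavy chain Slc3a2 beside the stacked CPM/kb of its light chains in libraries 1, 2 and 3. In each library the stack is taller than the heavy chain (mean 44.7 against 29.8 CPM/kb), and Slc7a5 makes up 54.9% of the stack.

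The remaining family 7 light chains were nearly silent. Slc7a12 and Slc7a13, light chains of kidney, had no count, and Slc7a15 had 6, 0 and 0 counts. The opposite-strand gene Slc7a6os, which lies 2.01 kb from Slc7a6 and is a gene of its own, measured 18.7, 30.7 and 30.5 CPM, lowest in library 1 as Slc7a6 was.

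Cationic amino acids enter many cells through the CAT carriers of family 7, which need no heavy chain. Slc7a1 (CAT1), the main arginine and lysine importer of proliferating cells, measured 99.8, 111 and 124 CPM (111 ± 12.1 CPM; 9.67 ± 1.05 CPM/kb). Slc7a2 (CAT2), known from activated macrophages and liver, measured 1.53, 0.996 and 2.66 CPM, and Slc7a3 (CAT3) had 0, 6 and 10 counts. CAT1 was therefore the CAT carrier that dominated in every library. Of the relatives with no settled transport function at the cell surface, Slc7a14 measured 46.6, 65.8 and 55.6 CPM (5.70 ± 0.974 CPM/kb), a gene better known from brain and retina. Slc7a1 exceeded it 1.71-fold per kilobase, in 3 of 3 libraries. Slc7a4 measured 9.80, 9.76 and 8.02 CPM, with 13.3% of its exon bases overlapping P2rx6 on the opposite strand.

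All 3 members of Slc43, carriers that work without ions, were expressed. Slc43a3, the nucleobase carrier, measured 123, 116 and 140 CPM (126 ± 12.6 CPM; 28.2 ± 2.83 CPM/kb). Slc43a1 (LAT3), a carrier of branched-chain amino acids and phenylalanine, lies 73.0 kb from it on chromosome 2 and measured 72.7, 73.6 and 80.0 CPM (13.2 ± 0.700 CPM/kb). Slc43a2 (LAT4) measured 97.3, 93.4 and 83.6 CPM (9.11 ± 0.701 CPM/kb). The order Slc43a3, Slc43a1, Slc43a2 per kilobase was found in all 3 libraries, with Slc43a3 2.14-fold above Slc43a1 and Slc43a1 1.45-fold above Slc43a2. The CPM values of Slc43a1 and Slc43a2 stand in the reverse order because Slc43a2 has the longer exons.

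In family Slc1, Slc1a5 (ASCT2), the exchanger that brings in glutamine, was the main member, at 88.5, 92.7 and 97.6 CPM (92.9 ± 4.58 CPM; 22.3 ± 1.10 CPM/kb). Slc1a4 (ASCT1), an exchanger of serine and alanine, had 16, 91 and 83 counts, or 0.521, 3.63 and 2.76 CPM, so library 1 lay well below the others. The glutamate carriers of neurons and glia were all under 1 CPM. Slc1a1 had 23, 7 and 23 counts, with 31.9% of its exon bases overlapping 4430402I18Rik on the opposite strand. Slc1a2 had 9, 6 and 4 counts and Slc1a3 had 2, 2 and 10. Slc1a6 (0, 0 and 4) and Slc1a7 (1, 2 and 0) had a few counts and none in at least 1 library.

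In family Slc6, which is best known for neurotransmitter reuptake, a single member carried most of the level. Slc6a6, the carrier of taurine, an abundant osmolyte, measured 239, 189.5 and 224 CPM (217 ± 25.2 CPM; 25.7 ± 2.98 CPM/kb), lowest in library 2. Slc6a15, a carrier of branched-chain amino acids and proline, measured 5.76, 5.50 and 6.73 CPM. Slc6a20b, an imino acid carrier relative, measured 6.25, 2.79 and 4.03 CPM, but 21.1% of its exon bases overlap Sacm1l on the opposite strand. Slc6a8, the creatine carrier, measured 1.30, 3.63 and 4.69 CPM, lowest in library 1. Slc6a13, a GABA and taurine carrier, measured 2.71 ± 0.183 CPM, and the glycine carrier Slc6a9, known from red cell precursors, measured 2.15 ± 0.303 CPM with 38.6% of its exon bases overlapped on the opposite strand.

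The other Slc6 members were under 1 CPM or silent. Slc6a17 had 45, 19 and 10 counts, the serotonin carrier Slc6a4 had 25, 13 and 8, and the dopamine carrier Slc6a3 had 23, 12 and 2. Slc6a18, a kidney carrier, had 12, 14 and 10 counts, and Slc6a12, a betaine and GABA carrier, had 20, 6 and 3. Slc6a2 and Slc6a20a each had 2 counts, in library 3 only. Members without a count included the GABA carrier Slc6a11, the glycine carrier Slc6a5, the proline carrier Slc6a7, the broad carrier Slc6a14 and the gut and kidney carrier Slc6a19 with its antisense gene Slc6a19os.

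In family Slc36, the proton-coupled carriers, Slc36a1 (PAT1), which exports amino acids from lysosomes, measured 42.97, 50.6 and 44.7 CPM (8.19 ± 0.716 CPM/kb). Slc36a4 (PAT4) measured 11.8, 13.5 and 14.4 CPM, and Slc36a1 exceeded it 4.05-fold per kilobase in 3 of 3 libraries. The tissue-restricted Slc36a2 (0, 10 and 6 counts) and Slc36a3 (1, 0 and 3 counts) were near or at 0. The antisense gene Slc36a1os, 6.49 kb from Slc36a1, measured 7.16, 12.1 and 9.72 CPM. These 4 genes form a cluster on chromosome 11 in which the expressed Slc36a1 and Slc36a1os adjoin the near-silent Slc36a2 and Slc36a3. Within 500 kb of each other, 15 neighbouring pairs of members were found: in 5 pairs both members reached 1 CPM, in 6 neither did and in 4 only 1 did. These pairs include the genes that only share the name. The same count was not made for neighbouring genes at large, so it does not show whether nearby members share their level.

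Ordered per kilobase, the members formed a steep head and a long tail. Slc38a2 (59.4 CPM/kb) stood above Slc3a2 (29.8) in every library by more than the SD of their log2 difference (1.00 ± 0.14). From Slc3a2 through Slc43a3, Slc6a6 and Slc7a5 to Slc1a5 (22.3 CPM/kb), no 2 neighbours in the order differed beyond that spread. The ends of this run did differ, with Slc1a5 below Slc3a2 in every library (log2 -0.42 ± 0.07). Slc1a5 stood above Slc38a1 (20.9 CPM/kb) in all libraries, an order that reverses over the longest transcript (33.1 against 49.5 CPM/kb). Slc38a1 stood above Slc43a1 (13.2 CPM/kb) in all libraries. Of the 30 neighbouring pairs in the order, 10 were separated in all 3 libraries by more than the SD and 20 were not. The order below Slc38a2 and the size of the gaps rest on the length used. Over the longest transcript Slc38a2 still led (85.9 CPM/kb), followed by Slc38a1 (49.5 CPM/kb), Slc43a3 (48.1 CPM/kb) and Slc3a2 (37.4 CPM/kb). The last member above 1 CPM was Slc7a2 at 0.189 CPM/kb.

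No member was called as varying between libraries beyond genes of similar abundance. The variability test, edgeR's quasi-likelihood dispersion of each gene against the trend with Benjamini-Hochberg adjustment, called 0 of 31 members (background 0.00771% of genes at 1 CPM or more). At an unadjusted p under 0.05 it also called 0 members (background 4.54%), and the dispersion outlier flag of DESeq2 called 0 (background 0.231%). The smallest p among members was that of Slc1a4 (edgeR, adjusted p = 0.982). On simulated data with 1 library changed, the variability test recovered 34.6% of genes at 2-fold and 78.7% at 4-fold, so smaller shifts would mostly be missed. Beyond counting noise alone, a chi-square test on the 3 counts called 28 of 31 members (background 82.6%), all but Slc6a13, Slc6a15 and Slc6a9. It called 18 without library 1 and 19 without library 3. For amplified reads this is a low bar.

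Differences over 2-fold between single libraries, on the log2(CPM + 0.5) scale, lay among low members. Between libraries 1 and 2 there were 4 of 31 (12.9%, above the background of 5.04%). Of these, Slc1a4, Slc38a5 and Slc6a8 were lower in library 1 (9.68%, background 3.27%). The other, Slc6a20b, was higher there (3.23%, background 1.77%). Between libraries 1 and 3 there were 2 (6.45%, background 5.18%), Slc1a4 and Slc6a8. Both were lower in library 1 (background 3.08%), and 0 were higher there (background 2.1%). Between libraries 2 and 3 there was 1 (3.23%, background 2.4%), Slc7a2, lower in library 2 (background 1%), and 0 were higher there (background 1.4%). All 5 of these genes were among the 7 members between 1 and 5 CPM, while the 24 members at 5 CPM or more all stayed within 2-fold. In library 1, where Slc1a4 and Slc6a8 were low, the basophil and mast cell genes Mcpt8 (49, 141 and 289 counts) and Fcer1a (23, 96 and 122 counts) were low too. Cpa3, the highest of the 4 such markers listed, was not lowest there (29.1, 30.2 and 28.0 CPM). The whole list summed to 35.2, 46.4 and 46.8 CPM, with none at 0, and its part in the levels of these members was not tested.

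The median member shifted by -0.10 in library 1, 0.07 in library 2 and 0.10 in library 3, in log2(CPM + 0.5) against the mean of the other libraries. The same medians over all genes were -0.05, 0.05 and 0.00. In library 1, 20 of 31 members lay below the mean of the others, from Slc1a4 at -1.85 to Slc6a20b at 0.81. Library 1 was the lowest of the 3 for 16 members (51.6%), against 44.3% of all genes. Among them were Slc7a5, Slc7a6, Slc3a2, Slc1a5 and Slc7a1, whereas Slc38a2 and Slc6a6 were highest in library 1. The share of Rn45s was also highest there, and with totals that leave it out the median shift of the members in library 1 was -0.03. The median coefficient of variation was 11.03% for the members and 13.2% for all genes.

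**Figure D5:**
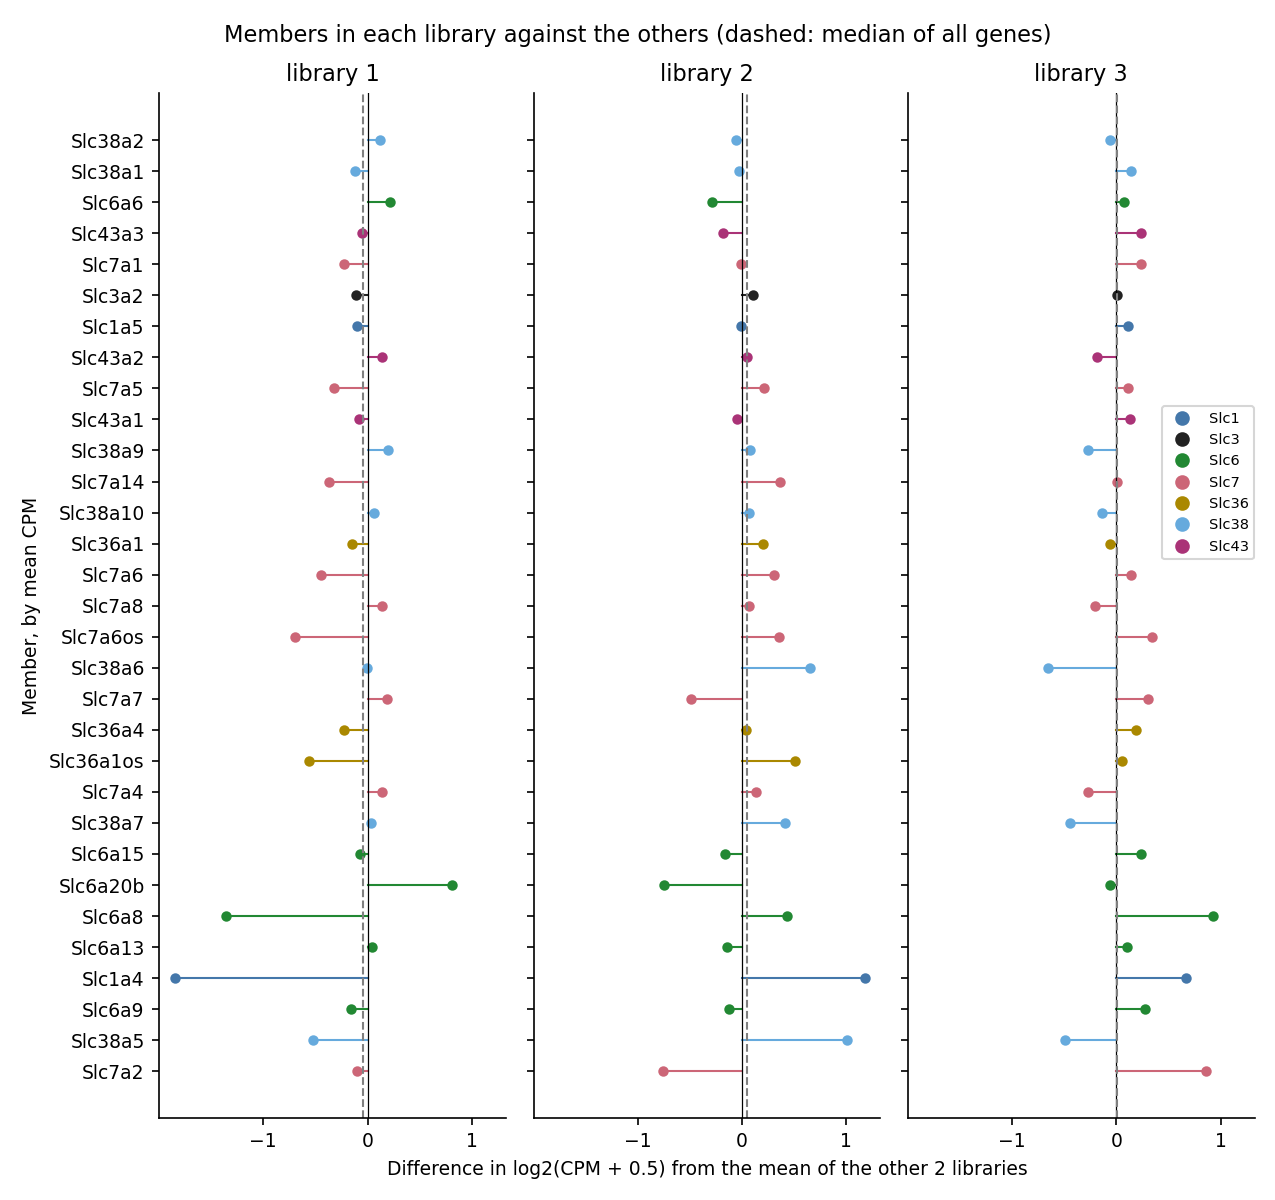
Difference in log2(CPM + 0.5) of each of the 31 members in a library from the mean of the other 2 libraries, coloured by family; members run from the highest mean CPM at the top to the lowest, and dashed lines mark the median of all genes. Members at the top stay near 0 in all 3 panels, and the widest shifts are those of Slc1a4 (-1.85) and Slc6a8 in library 1.

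Genes that read or answer amino acid supply were listed alongside. In the list of the amino acid response, through which the kinase GCN2 and the factor ATF4 induce carriers such as Slc38a2, Slc7a11 and Slc3a2, 11 of 15 genes reached 1 CPM. Atf4 itself measured 150 ± 19.4 CPM (63.7 CPM/kb) and led the list per kilobase, followed by the serine synthesis genes Psat1 (43.7 CPM/kb) and Phgdh (39.0 CPM/kb). The hormone gene Fgf21 had no count. Slc7a11, at 0.476 CPM, was thus under 1 CPM in libraries where Atf4 and Slc38a2 were among the higher genes. In the list of lysosomal sensing and mTORC1, 25 of 25 genes with a row reached 1 CPM, led per kilobase by Sesn1 (35.8 CPM/kb), of the sestrin family of leucine sensors, Lamtor5 (34.2 CPM/kb), a subunit of the lysosomal Ragulator complex, and Rraga (14.9 CPM/kb), a Rag GTPase. Rragd was lowest (0.324 CPM/kb). Castor1, Samtor and Kics2 were also listed but had no row under these symbols. Of all gene rows, 53.1% reached 1 CPM. No gene of either list was called by the variability test.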

How the data were processed

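RNA of sorted bone marrow HSPCs was measured in 3 control libraries, grouped by their titles. Per the labels' protocols, 10 ng of total RNA per sample was turned into cDNA with both poly(A) and random primers, amplified and sheared for sequencing. The files deposited by the authors are 1 per library and list raw counts by gene symbol, over 24421 gene rows, 92 ERCC spike-in rows and 5 category rows. The build mm10 and the tools TopHat2 2.0.9, HTSeq and DESeq2 are listed, without their roles, in the submitters' processing notes. Which gene model and strand option were used for counting is not given in the sources used here. Reads of overlapping genes on opposite strands may therefore not have been told apart. Random priming admits ribosomal and unspliced RNA, and amplification copies molecules unevenly.

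From the counts, CPM was computed on gene-row totals, without ERCC and category rows. Fold differences between libraries are on the log2(CPM + 0.5) scale, so those of low genes are understated. Differences between genes are log2 ratios of CPM/kb within each library, without a pseudocount. Coordinates and exon lengths came from GENCODE M21 on GRCm38 (mm10), matched by symbol for 64 of 64 members and 95.7% of gene rows. Promoter windows and motif counts used RefSeq sequence. The variability test was edgeR 4.0.16 (TMM, quasi-likelihood, intercept only, robust), and the chi-square test had 2 degrees of freedom. Both covered the 12965 genes at a mean of 1 CPM or more, with Benjamini-Hochberg adjustment and a threshold of 0.05. Both were tested on simulated data: of 683 calls of the variability test 13 were false, and the chi-square test recovered 166 of 200 genes changed 1.5-fold with 13 false calls. The first simulation gave every gene the dispersion of the trend, and that of the chi-square test held counting noise only. Neither therefore gives the error rate in the real libraries. Alternatives were TMM and DESeq2 1.42.0 size factors, totals without Rn45s, other minima and pseudocounts, plain CPM or the longest transcript as length, and leaving out each library. The last of these lengths was added for the family share after the data were seen. Other software was R 4.3.3 and Python 3.11.15 with pandas 2.3.3, NumPy 2.4.6 and SciPy 1.17.1.

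The members, the 4 gene lists and the marker lists were chosen with earlier results of these data known. Members at 5 CPM or more were named with every library's value, those from 1 to under 5 CPM with CPM, mean and SD or counts, and those under 1 CPM with counts, except where a result is not reported here. Of each gene list the 3 highest genes per kilobase and the lowest were named. Sequences of the proteins are not used here.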

Additional observations from a re-analysis of the deposited data

Results flagged for a closer look

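A signal outside the gene counts was present in all 3 libraries: the ERCC spike-ins, synthetic RNAs added to a sample, had 455900, 239355 and 174913 counts in libraries 1, 2 and 3. They amounted to 1.48%, 0.954% and 0.582% of gene counts. Per spike-in count there were 0.148, 0.233 and 0.388 counts of amino acid transporters. On that scale library 3 stood highest and library 1 lowest, whereas the members' summed CPM differed little between libraries (2199, 2219 and 2263 CPM). The amount of spike-in added per cell or per library is not given in the sources used here.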

How the results depend on the processing

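No paired analysis was possible because all libraries belong to 1 group. The share of family Slc38 was 46.6% in plain CPM and 35.6% over the longest transcript, a length chosen for it after seeing the data. Members over 2-fold apart between libraries 1 and 2 numbered 2 with a pseudocount of 1 and 0 at a minimum of 5 CPM. Between libraries 1 and 3 they numbered 4 with no minimum and 0 at a minimum of 5 CPM. Between libraries 2 and 3 they numbered 2 with totals without Rn45s, 0 with a pseudocount of 1, 2 with a pseudocount of 0.1 and 0 at a minimum of 5 CPM. Leaving out 1 library, the chi-square test called 18 to 25 members, and fewer libraries give it less to test. Members at the expression minimum numbered 24 to 36 over all settings, where Slc3a1 passed 1 CPM with totals without Rn45s, and Slc3a1 and Slc6a17 did so without library 3. Slc3a2 stayed below its summed light chains, from -0.46 to -0.78 in log2. The variability test called 0 members under every alternative run. Of 71 levels of single members and families, totals without Rn45s moved 16 by more than 1 SD, and TMM factors and DESeq2 factors moved none. Leaving out 1 of 3 libraries cannot move a mean by 1 SD and so tests nothing there. Depth limits members under 1 CPM: 4 of those with a count had at most 3 counts in every library.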

Other observations

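A pair of further lists describe what the cells did with amino acids and how they moved them inside the cell. Of the enzymes of amino acid metabolism, 29 of 32 reached 1 CPM, against 53.1% of all gene rows. Mat2a, which makes the methyl donor S-adenosylmethionine from methionine, led per kilobase (150 CPM/kb) with 589, 676 and 748 CPM. Glud1, glutamate dehydrogenase, followed (125 CPM/kb) with 505, 499 and 577 CPM, and then Glul, glutamine synthetase (85.4 CPM/kb), with 299, 299 and 253 CPM. All 3 stood above Slc38a2, the highest transporter (59.4 CPM/kb). Ass1, which starts arginine synthesis from citrulline, and Ido1, which breaks down tryptophan, had no count. Library 1 was the lowest of the 3 for 24 of the 29 expressed enzymes (82.8%), against 44.3% of all genes. Asns, asparagine synthetase, measured 11.8, 20.6 and 25.0 CPM, and Odc1, which makes putrescine from ornithine, 131, 195 and 216 CPM. The edgeR variability test with Benjamini-Hochberg adjustment called 0 of the enzymes.

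Of 23 amino acid carriers in other families, 20 reached 1 CPM, against 53.1% of all gene rows. The highest per kilobase were mitochondrial: Sfxn3 (21.7 CPM/kb; 76.6, 63.0 and 63.1 CPM) and Sfxn1 (11.7 CPM/kb; 104, 115 and 126 CPM), sideroflexins of which Sfxn1 carries serine, and Slc25a12 (16.8 CPM/kb; 128, 111 and 130 CPM), the aspartate and glutamate carrier. Of the 4 vesicular carriers of neurons, Slc32a1 and Slc17a6 had no count, Slc17a7 had 1, 14 and 3 counts, and Slc17a8 had 23, 46 and 63 counts (1.56 CPM). Asns, Odc1 and the vesicular carriers were chosen after their values were seen.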
